A study of Mus musculus with 36 samples.

Results

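The zinc finger genes that these dendritic cells express under a Zfp number were described across 12 groups of libraries. Members were chosen by their symbol, the letters Zfp followed by digits alone, and by a measured value, a mean normalized count of at least 10 over all 36 libraries. Zfp36 and Zfp395 were left out of the set. Of 331 such symbols, 272 met the level rule, 59 lay below it and 6 of those had no read at all, so that the set held 272 of 24127 rows of the table and 272 of the 11853 genes tested. The nearest genes below the threshold were Zfp941 (mean normalized count 8.79), Zfp773 (9.61) and Zfp960 (9.79), and the nearest above it were Zfp580 (10.1), Zfp108 (10.2) and Zfp651 (10.2). Since the rule used the mean level, the levels below are a description, and 245 of the 272 genes had a mean of at least 10 in every group.

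RNA was sequenced from dendritic cells grown out of mouse bone marrow with GM-CSF, on the C57BL/6 strain, and enriched with a CD11c positive selection kit. Cells were WT or carried the label Dhx58-/- (LGP2-/-, here labelled KO), and were either transfected with 20 ng of PAMP RNA, an agonist of the RNA sensor RIG-I, or served as mock controls that the labels also call untreated. Collection was at 1, 3 or 6 h, with 3 libraries in each group. A response is the difference of PAMP RNA from mock within a genotype and time, and the sources used here do not say whether mock cells received the transfection reagent. Differences are in log2 units of the normalized count plus 1, and a gene was called at a Benjamini-Hochberg adjusted p under 0.05 over 11853 genes in limma.

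C2H2 zinc finger proteins hold a zinc ion between cysteine and histidine pairs in each finger, and rows of such fingers read DNA sequence. The largest group in mammals also carries a KRAB box, which recruits the corepressor TRIM28 and through it the histone methyltransferase SETDB1, and many of these proteins keep endogenous retroviruses and other repeats silent. Members without a KRAB box have varied roles, among them transcription factors of development and of immune cells, ribosome and RNA factors, and enzymes that attach ubiquitin or SUMO.

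A KRAB box was found in the annotated protein of 149 members and not in 121, and 2 members had no annotated protein. The median member encoded 11 C2H2 fingers, with quartiles of 7 and 14. Chromosome 7 held 72 of the members, chromosome 17 held 34 and chromosome 13 held 28, and 148 members lay within 100 kb of another member. Near-identical sequence limits the counting for some: 20 members shared more than 10% of their transcripts' 100-base stretches with other genes, the highest being Zfp935 (99.3%), Zfp708 (94.3%), Zfp433 (75.5%) and Zfp97 (67.3%), whose values are uncertain. The libraries do not mark the strand, so reads of a member and of a gene that overlaps it cannot be told apart, and 36 members had more than 10% of their exons overlapped.

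The upstream sequences of 4 members that the results turn on are given first, to show the promoter of a strong riser without any of the motifs searched beside a riser and a faller that hold one and a faller that holds none. Each run is the 250 bases before the transcription start in RefSeq (build GRCm38.p6), written 5′ to 3′ on the gene's strand, with matches to the searched motifs in capitals, the ACGTG core of hypoxia response elements in Zfp281 and the NF-kB motif GGNNTTTCC in Zfp760. Zfp800 and Zfp281 rose after PAMP RNA, and Zfp760 and Zfp398 fell.
Zfp800 (chr6:28398006-28398255, minus strand): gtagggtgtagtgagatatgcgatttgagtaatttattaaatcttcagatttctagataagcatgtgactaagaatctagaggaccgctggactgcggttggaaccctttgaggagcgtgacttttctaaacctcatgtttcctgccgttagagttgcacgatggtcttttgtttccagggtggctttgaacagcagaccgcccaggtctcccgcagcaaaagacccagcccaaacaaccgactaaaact
Zfp281 (chr1:136624651-136624900, plus strand): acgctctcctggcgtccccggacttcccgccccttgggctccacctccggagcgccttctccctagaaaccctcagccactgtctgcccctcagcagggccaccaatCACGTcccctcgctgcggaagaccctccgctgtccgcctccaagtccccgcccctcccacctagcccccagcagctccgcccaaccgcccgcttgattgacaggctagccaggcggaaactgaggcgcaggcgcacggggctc
Zfp760 (chr17:21707491-21707740, plus strand): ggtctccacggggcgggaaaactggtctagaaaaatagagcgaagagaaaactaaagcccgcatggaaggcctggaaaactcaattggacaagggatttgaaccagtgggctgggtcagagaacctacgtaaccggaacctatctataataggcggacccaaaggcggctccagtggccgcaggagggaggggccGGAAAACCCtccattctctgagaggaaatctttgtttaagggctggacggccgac
Zfp398 (chr6:47835411-47835660, plus strand): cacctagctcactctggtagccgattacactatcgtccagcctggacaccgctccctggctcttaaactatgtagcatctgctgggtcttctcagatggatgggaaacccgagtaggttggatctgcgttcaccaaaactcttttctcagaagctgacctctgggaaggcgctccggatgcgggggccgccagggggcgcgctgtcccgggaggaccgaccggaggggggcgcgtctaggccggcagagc

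The targeted gene went partly against its label. Dhx58 reached 115, 142 and 138 normalized counts in WT mock cells at 3 h and 521, 377 and 455 in mock cells labelled KO. After PAMP RNA it reached 1457, 1546 and 1428 in WT cells and 567, 614 and 603 in cells labelled KO, so that the small rise went with the label while the mock level lay above WT, and the sources used here do not say whether the counted reads fall in the deleted part. Libraries held 4740909 to 14255730 reads in genes. Summed markers of dendritic cells were 25846 to 52995 normalized counts, those of macrophages 8831 to 15149 and those of granulocytes 101 to 222, while T cell, B cell, NK cell, red cell, fibroblast and epithelial lists each summed to at most 18.8. In bulk RNA, fewer cells of a type and less RNA per cell cannot be told apart.

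The Zfp genes spanned a wide range of levels. Their median mean normalized count was 111, with quartiles of 48.1 and 219. Zfp106, an RNA-binding factor, was the most abundant with a mean normalized count of 2708. It was followed by Zfp91 (1567), an E3 ubiquitin ligase of the NF-kB pathway, Zfp710 (1549), Zfp217 (1489), a partner of corepressor complexes, Zfp207 (1461), a spindle assembly factor, and Zfp871 (1391). Per kilobase of exon the order was Zfp106 (259.7), Zfp217 (243), Zfp710 (224), Zfp207 (219) and Zfp706 (175).

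Together the Zfp genes took a smaller share of the reads in genes after PAMP RNA. In WT cells the 3 libraries of each group gave 0.768% to 0.785% in mock cells and 0.629% to 0.637% with PAMP RNA at 3 h, and 0.763% to 0.774% against 0.547% to 0.568% at 6 h. In cells labelled KO the shares were 0.758% to 0.778% against 0.575% to 0.604% at 3 h and 0.736% to 0.768% against 0.495% to 0.53% at 6 h. Mock and PAMP libraries did not overlap at 3 or 6 h in either genotype. At 1 h the ranges were 0.748% to 0.788% in WT mock cells and 0.778% to 0.815% with PAMP RNA, which overlapped. A share also falls when other genes take more of the reads. The members' summed normalized counts differed less between the groups. In WT cells they were 55223.5 to 55441 in mock and 50910.3 to 51327.3 in PAMP libraries at 3 h. At 6 h they were 56915.6 to 57313.2 and 53098.5 to 54007.3.

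**Figure D1:**
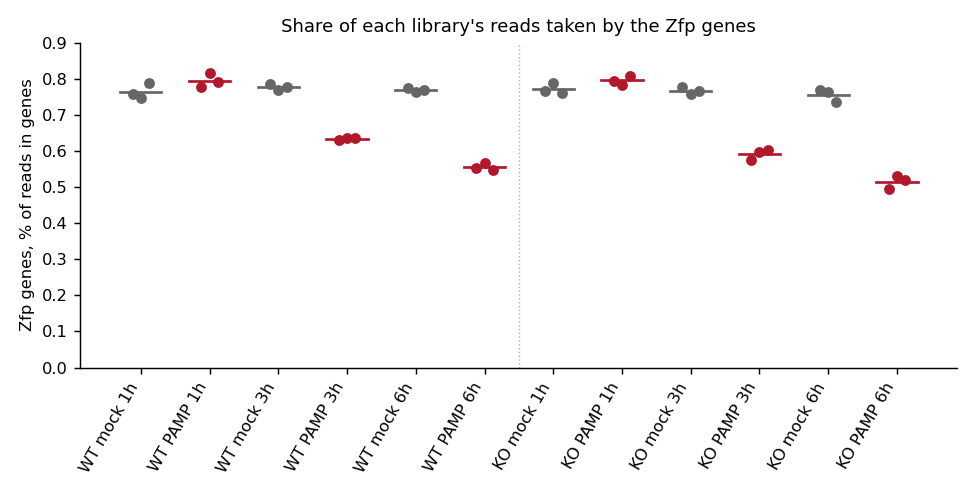
Share of the reads in genes that fell in the 272 Zfp genes, in percent, for each of the 36 libraries (points) with the group mean (line), mock in grey and PAMP RNA in red. The PAMP libraries at 3 and 6 h lie between 0.495% and 0.637%, all below the mock libraries, which lie between 0.736% and 0.788%.

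No Zfp gene was called at 1 h. Among all genes tested 0.801% were called higher and 0.143% lower in WT cells, and 1.19% and 0.169% in cells labelled KO. At an unadjusted p under 0.05 limma gave 15 of 272 members in WT cells and 11 in cells labelled KO. Of the 11853 genes tested it gave 1055 and 947, a larger share in each genotype. On the recovered reads edgeR and DESeq2 called 0 members in both. The median change of the members was 0.02 in WT cells.

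At 3 h a larger share of the members was called lower than of all genes tested, and a smaller share higher. In WT cells 112 members (41.2%) were called lower and 25 (9.19%) higher, against 22.0% and 19.6% of all genes tested. Of the members in cells labelled KO, 135 (49.6%) were lower and 25 (9.19%) higher, against 26.9% and 23.8%. The median change of the members was -0.27 in WT cells and -0.35 in cells labelled KO, beside -0.03 over all genes in each. Among the 3766 tested genes whose mean lay between the members' quartiles, 22.7% were lower and 12.3% higher in WT cells, and 31.1% and 15.2% in cells labelled KO. A gene can pass the level rule through the groups where it is higher. Of the 245 members with a mean of at least 10 in every group 44.5% (WT) and 50.2% (labelled KO) were lower. Under that filter 22.9% and 27.6% of all genes were lower. Higher were 10.2% of those members in each genotype, beside 19.5% and 23.7%.

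At 6 h the share that fell was closer to the background. In WT cells 105 members (38.6%) were lower and 36 (13.2%) higher, against 33.3% and 32.1% of all genes. In cells labelled KO 118 (43.4%) were lower and 43 (15.8%) higher, against 36.5% and 35.1%. Among the 245 members with a mean of at least 10 in every group 38.0% (WT) and 40.8% (labelled KO) were lower. Of all genes under that filter 33.7% and 36.9% were lower. Higher were 14.7% and 17.6% of those members, beside 32.5% and 35.5%. Genes with means between the members' quartiles were lower in 39.0% and higher in 21.1% of cases in WT cells, and in 43.4% and 23.7% in cells labelled KO. At that level the falls at 6 h lie near the background, and the share of rises lies below it. The members' median was -0.18 in WT cells and -0.21 in cells labelled KO, against -0.02 and -0.03 over all genes. With quantile normalization 39.0% of members and 39.3% of all genes were lower in WT cells, and 40.8% and 41.9% in cells labelled KO. Higher were then 13.6% and 26.2%, and 17.3% and 28.4%.

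Scaling sets these splits in part. The size factors behind the normalized counts were 0.772 to 0.848 in the WT and 0.699 to 0.842 in the KO libraries with PAMP RNA at 6 h, and 1.07 to 1.19 in the mock libraries at 6 h. With libraries set to equal total reads the median of all genes moved to -0.20 and -0.39 in WT cells at 3 and 6 h and to -0.28 and -0.51 in cells labelled KO. Members called higher and lower were then 16 and 171, and 12 and 207, in WT cells. In cells labelled KO they were 19 and 209, and 15 and 217. In the same order 62.9%, 76.1%, 76.8% and 79.8% of members were lower, beside 45.3%, 62.4%, 56.8% and 66.5% of all genes. Higher were 5.88%, 4.41%, 6.99% and 5.51%, beside 13.6%, 16.4%, 14.9% and 16.9%. Relative to the median of all genes the members' median was -0.24, -0.15, -0.32 and -0.19 in the same order. Under the deposited scaling it was -0.24, -0.15, -0.32 and -0.19. Both scalings multiply a library by a single factor, which shifts all genes nearly alike. The closeness of these values was therefore fixed in advance and says nothing about the members. Quantile normalization gave -0.20, -0.08, -0.25 and -0.08 for the members' median relative to that of all genes. The part of the scaling in the counts of falls was not otherwise tested.

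**Figure D2:**
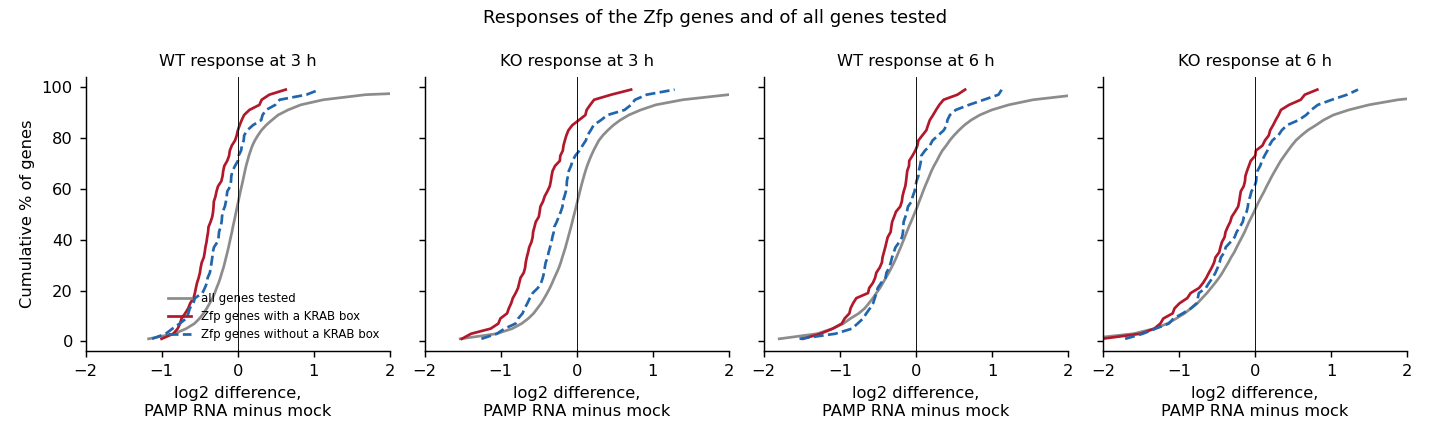
Cumulative percentage of genes (vertical axis) by log2 difference between PAMP RNA and mock (horizontal axis) for Zfp genes with a KRAB box (red, n = 149), those without (blue, dashed, n = 121) and all 11853 genes tested (grey), from the 1st to the 99th percentile. At 3 h the curve of the KRAB members lies left of the others, with medians of -0.33 in WT cells and -0.49 in cells labelled KO, and few members reach the rises of the grey curve's upper tail.

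KRAB members were called lower in larger shares than the other members, and called higher in smaller ones. In WT cells at 3 h 65 of 149 KRAB members were lower and 8 higher, with a median of -0.33, and of the 121 without the box 47 were lower and 17 higher, with a median of -0.20. In cells labelled KO at 3 h the counts were 84 lower and 5 higher with the box (median -0.49) and 50 lower and 20 higher without it (median -0.23). At 6 h they were 63 lower and 11 higher against 42 and 25 in WT cells, and 67 and 16 against 49 and 27 in cells labelled KO. The difference between members with and without the box was not tested. Of all genes 22.0% were lower and 19.6% higher at 3 h in WT cells, and 26.9% and 23.8% in cells labelled KO. At 6 h they were 33.3% and 32.1%, and 36.5% and 35.1%. In WT cells at 6 h 42.3% of KRAB members were lower, near the 39.0% of genes with means between the members' quartiles. The shares higher were 7.38% and 21.1%. Other tested genes with a KRAB box and C2H2 fingers, which carry other symbols, gave 22 lower and 2 higher of 46 in WT cells at 3 h, and 33 lower and 0 higher in cells labelled KO. Zbtb genes, zinc finger factors with a BTB domain, gave 10 lower and 8 higher of 36 in WT cells, and 13 and 9 in cells labelled KO.

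**Figure D3:**
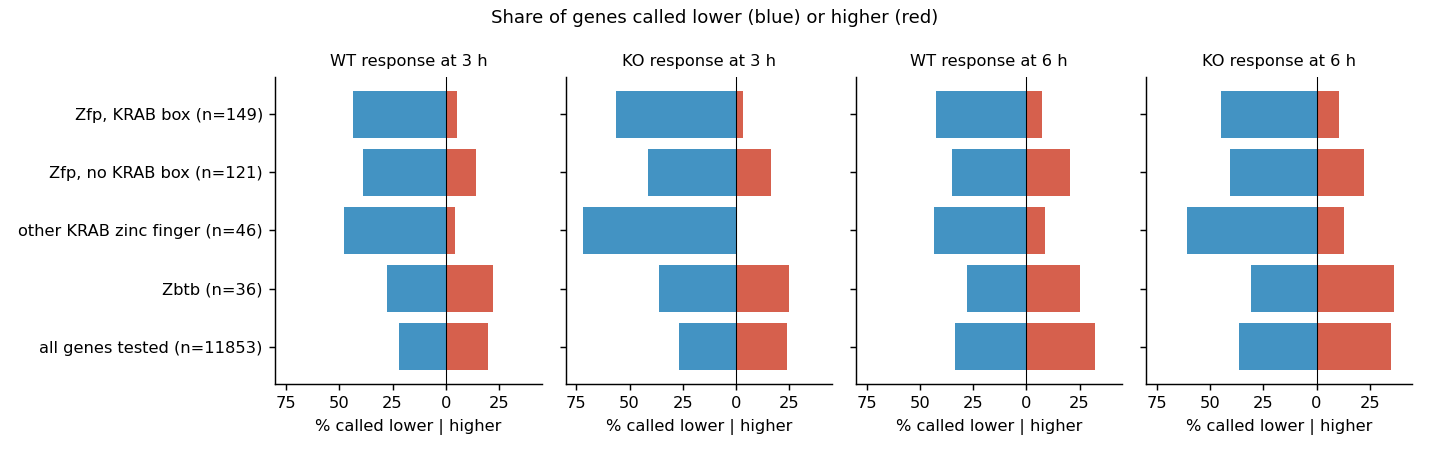
Percentage of genes called lower (blue, to the left of 0) and higher (red, to the right) in limma at 3 and 6 h, for Zfp genes with and without a KRAB box, other KRAB zinc finger genes, Zbtb genes and all genes tested, with the number of genes in brackets. KRAB members were called lower in 43.6% (WT) and 56.4% (labelled KO) at 3 h, against 22.0% and 26.9% of all genes. In WT cells at 6 h the shares lower were 42.3% and 33.3%.

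Members with a close neighbour, mostly KRAB members, were called lower in 68 of 148 cases (45.9%) and higher in 8 in WT cells at 3 h. The 124 without another member within 100 kb were lower in 44 (35.5%) and higher in 17, beside 41.2% lower over all members. In cells labelled KO at 3 h 86 of the 148 (58.1%) were lower and 6 higher. Of the 124 without a neighbour 49 (39.5%) were lower and 19 higher there. Of all genes 22.0% in WT cells and 26.9% in cells labelled KO were lower at 3 h. The differences were not tested. On chromosome 7 28 of 72 members were lower and 6 higher in WT cells at 3 h and 40 and 4 in cells labelled KO, and the 34 on chromosome 17 gave 18 lower and 2 higher in each genotype. Of all 272 members 112 and 135 were lower, and differences between chromosomes were not tested.

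The silencing partners of the KRAB proteins, a list of 32 genes, gave 9 lower and 5 higher in WT cells at 3 h and 13 and 10 at 6 h, and 12 and 6 and then 16 and 11 in cells labelled KO. In WT cells these are 28.1% lower and 15.6% higher at 3 h and 40.6% and 31.3% at 6 h, beside 22.0% and 19.6%, and 33.3% and 32.1%, of all genes. The shares of all genes in cells labelled KO were 26.9% and 23.8%, and 36.5% and 35.1%. Trim28, the corepressor itself, changed by -0.38 (SE 0.06, adjusted p = 2.19e-06) in WT cells at 3 h and by -0.61 (SE 0.06, adjusted p = 6.22e-12) at 6 h. Setdb1 changed by -0.42 (SE 0.07, adjusted p = 3.60e-06) and -0.54 (SE 0.07, adjusted p = 7.93e-09). In cells labelled KO Trim28 fell by 0.34 and 0.71 and Setdb1 by 0.47 and 0.72 at 3 and 6 h. Morc3, an ATPase of nuclear bodies that restrains viruses, went the other way, by 1.17 (SE 0.05) and 1.43 (SE 0.05) in WT cells.

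Most calls were shared by the genotypes. Of the members lower at 3 h 98 were so in both, which is 87.5% of the WT and 72.6% of the KO list, and of those higher 21 were, 84% of each. At 6 h 92 were lower in both (87.6% and 78.0%) and 31 higher (86.1% and 72.1%). Between 3 and 6 h, which have their own mock libraries, 71 members stayed lower and 21 higher in WT cells, and 91 and 22 in cells labelled KO, with 2 members called in opposite directions in each. In all 4 of these responses, under the deposited scaling, 17 members were higher, 64 lower and 50 never called, and the other 141 were called in some. Shared calls were not counted over all genes tested, so these counts are not read as particular to the members. The 17 that always rose had 4 KRAB members and a median of 8 fingers, and the 64 that always fell had 38 and a median of 11.

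Zfp800 rose more than any other member in each of the 4 responses. This factor without a KRAB box has 7 fingers and lies at chr6:28239927-28398005 (GRCm38). At 3 h the WT mock libraries held 362, 361 and 339 normalized counts and the PAMP libraries 1131, 1157 and 1088, and at 6 h 338, 349.6 and 352 and 1289, 1217 and 1366. Every PAMP library stood far above every mock library. The log2 difference was 1.66 (SE 0.06, adjusted p = 2.25e-27) at 3 h and 1.89 (SE 0.06, adjusted p = 7.97e-30) at 6 h. In cells labelled KO the mock libraries held 324, 337 and 316 and the PAMP libraries 1580.2, 1651 and 1590.2 at 6 h, a log2 difference of 2.30 (SE 0.06, adjusted p = 1.83e-33), after 2.01 (SE 0.06, adjusted p = 8.31e-31) at 3 h. The upstream bases printed above held none of the 4 motifs searched.

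Zfp319, with 12 fingers and no KRAB box, held 269.9, 242 and 249.7 normalized counts in WT mock cells at 3 h and 468, 469 and 480.3 with PAMP RNA. Libraries labelled KO held 248, 266 and 234 and 636, 614 and 622. The groups did not overlap, and the PAMP libraries labelled KO lay above those of WT. Its log2 differences were 0.90 (SE 0.08, adjusted p = 4.60e-14) and 1.32 (SE 0.08, adjusted p = 3.19e-20) at 3 h and 0.98 and 1.24 at 6 h. Zfp513, another factor without the box, reached 594, 575 and 636 at 6 h in WT cells from 277, 275 and 272 in mock cells, well clear of them. It rose by 1.13 (SE 0.08, adjusted p = 1.30e-16) in WT cells and 1.19 (SE 0.08, adjusted p = 1.47e-17) in cells labelled KO.

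Zfp821 held 37.4, 43.4 and 30.5 normalized counts in WT mock cells at 3 h and 90.6, 74.2 and 75.3 with PAMP RNA, with no overlap. Its changes were 1.10 (SE 0.18, adjusted p = 1.31e-06) at 3 h and 0.50 (SE 0.18, adjusted p = 0.0134) at 6 h in WT cells and 0.90 and 1.20 in cells labelled KO. Zfp213 rose by 0.99 (SE 0.12), 1.10 (SE 0.12), 1.13 (SE 0.12) and 1.38 (SE 0.12) in WT cells at 3 and 6 h and in cells labelled KO at 3 and 6 h, but 56.6% of its exons overlap other annotated genes. Zfp456 rose by 0.91 (SE 0.13), 1.13 (SE 0.13), 0.94 (SE 0.13) and 1.22 (SE 0.13) in the same order, with 59.2% of its exons overlapped and 10.05% of its 100-base stretches shared, so that both values are uncertain. Also among the largest rises were Zfp296 at 6 h in WT cells (1.08, SE 0.16) and the KRAB member Zfp382 at 3 h in cells labelled KO (0.93, SE 0.14).

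**Figure D4:**
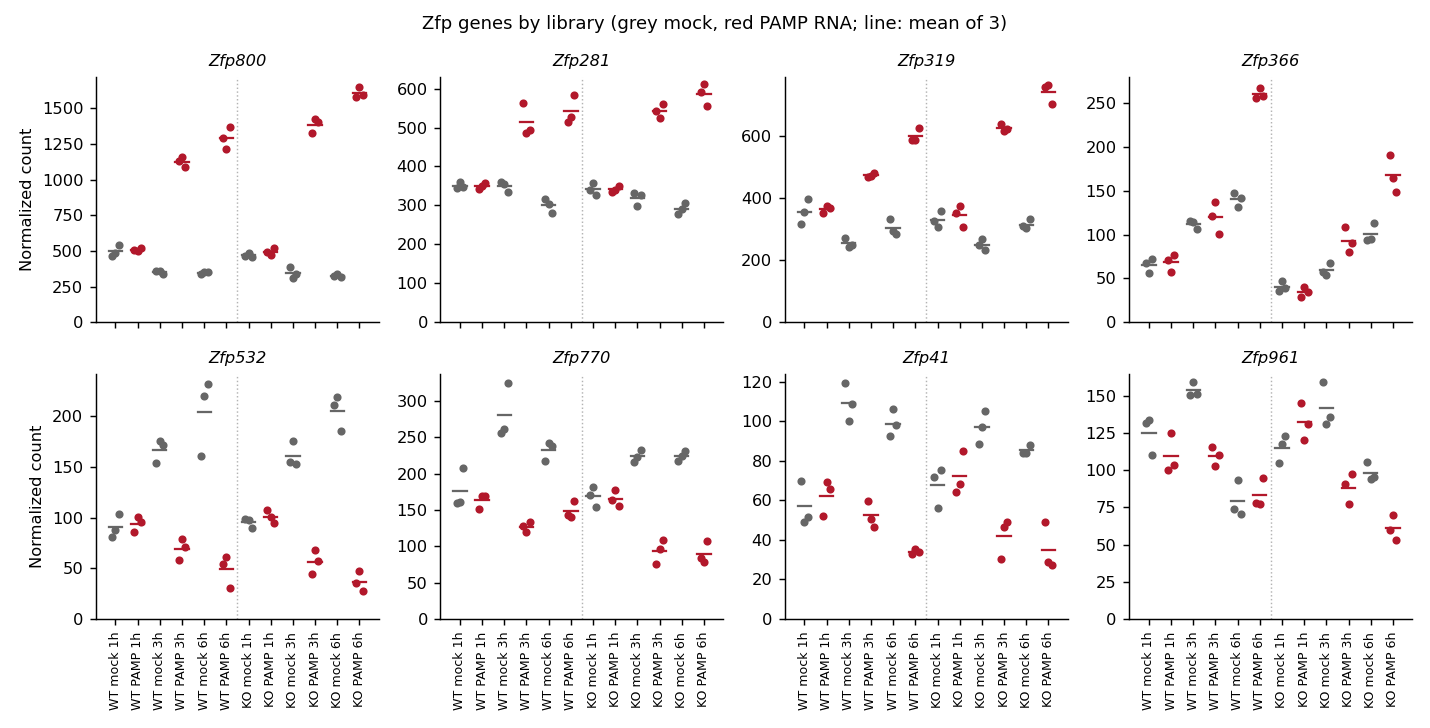
Normalized counts of 8 Zfp genes in each library (points) of the 12 groups, with the mean of 3 (line), mock in grey and PAMP RNA in red, WT left and labelled KO right of the dotted line, on linear axes from 0. Zfp800, Zfp281 and Zfp319 rise at 3 and 6 h, Zfp366 lies lower in the libraries labelled KO than in WT, Zfp532, Zfp770 and Zfp41 fall, and Zfp961 at 6 h lies lower with PAMP RNA in the libraries labelled KO but not in WT (WT log2 difference 0.07, labelled KO -0.68).

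Zfp532 had the deepest fall among the members with a mean of at least 50 in WT cells. It is known with Zfp592 and Zfp687 as part of a chromatin complex built on ZMYND8. WT mock libraries held 154, 176 and 172 normalized counts at 3 h and 161, 220.0 and 232 at 6 h, and PAMP libraries 57.98, 78.5 and 71.03 and 54.2, 61.7 and 31.1. The mock libraries were all far higher. The log2 difference was -1.27 (SE 0.17, adjusted p = 2.75e-08) and -2.08 (SE 0.17, adjusted p = 1.09e-14) in WT cells and -1.51 (SE 0.17, adjusted p = 2.37e-10) and -2.48 (SE 0.17, adjusted p = 1.79e-17) in cells labelled KO. Its mock level had itself risen, from 80.7, 87.6 and 103 at 1 h, so that the PAMP libraries at 3 h lay below the mock libraries of 1 h as well. Of its exons 28.7% overlap other annotated genes. Its partners moved differently: Zfp592 changed by -0.16 (SE 0.07) and -0.02 (SE 0.07) in WT cells and was not called in any response, and Zfp687 rose by 0.31 (SE 0.08, adjusted p = 0.00205) and 0.30 (SE 0.08, adjusted p = 0.00157). With equal total reads the Zfp687 values were 0.13 at 3 h and -0.069 at 6 h in WT cells and 0.063 at 3 h in cells labelled KO, none of them called, and the WT call at 3 h was also lost without mock library 1 (0.19).

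Zfp770, with 11 fingers and no KRAB box, held 256, 261 and 325 normalized counts in WT mock cells at 3 h and 129, 119.8 and 134 with PAMP RNA, and 217, 224 and 232 and 76.4, 96.4 and 108 in cells labelled KO. Mock and PAMP libraries did not overlap in either genotype. It changed by -1.13 (SE 0.11, adjusted p = 1.00e-11) and -1.26 (SE 0.11, adjusted p = 2.06e-13). Zfp41 held 92.3, 106 and 97.8 in WT mock cells at 6 h and 33.02, 35.6 and 33.7 with PAMP RNA, again without overlap, a change of -1.51 (SE 0.18, adjusted p = 3.32e-10). Its mock level too rose from 1 to 3 h, by 0.73 (SE 0.13, adjusted p = 2.45e-06), and that comparison shares the mock libraries of 3 h with the response at 3 h (-1.05).

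Zfp704 had a larger change at 6 h than at 3 h, a difference between times that was not tested. Its WT mock libraries held 772, 770.0 and 831 at 6 h and its PAMP libraries 246, 294 and 277, and the change was -0.40 (SE 0.07, adjusted p = 6.71e-06) at 3 h and -1.54 (SE 0.07, adjusted p = 5.90e-24) at 6 h. Cells labelled KO gave -0.54 and -1.68. Of its exons 16.6% are overlapped by another gene. The KRAB member Zfp398 held 84.7, 74.6 and 78.98 in mock and 18.9, 34.4 and 31.1 in PAMP libraries at 6 h, without overlap. It changed by -0.74 (SE 0.15, adjusted p = 8.54e-05) and -1.51 (SE 0.15, adjusted p = 7.35e-12), and by -0.86 and -1.31 in cells labelled KO.

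Zfp760, a KRAB member with 17 fingers, had its larger changes at 3 h. At 3 h it held 85.1, 59.3 and 75.2 in mock cells labelled KO and 21.3, 28.4 and 24.6 with PAMP RNA, a change of -1.52 (SE 0.17, adjusted p = 1.11e-10), and in WT cells it changed by -1.06 (SE 0.17, adjusted p = 8.10e-07). At 6 h the changes were -0.51 (SE 0.17, adjusted p = 0.00751) and -0.39 (SE 0.17, adjusted p = 0.038). Zfp503 fell at 3 h in WT cells (-1.11, SE 0.13) but was called higher there at 6 h (0.40, SE 0.13, adjusted p = 0.00696), and in cells labelled KO it fell at 3 h (-0.99) and was not called at 6 h (-0.09). Other large falls were those of the KRAB member Zfp799 (-0.93, SE 0.17) at 3 h in WT cells, of the KRAB member Zfp157 (-1.17, SE 0.12) and of Zfp703 (-1.11, SE 0.10) at 3 h in cells labelled KO, and of the KRAB member Zfp60 at 6 h in cells labelled KO (-1.34, SE 0.15).

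Among 6 measured factors of dendritic cells and immune cells, 1 was called higher and 2 lower in WT cells at 3 h, and 3 and 1 at 6 h, beside 19.6% and 22.0%, and 32.1% and 33.3%, of all genes. For cells labelled KO 2 were higher and 0 lower at 3 h, and 4 were higher and 1 lower at 6 h. Of all genes 23.8% were higher and 26.9% lower there at 3 h, and 35.1% and 36.5% at 6 h. Zfp366 encodes DC-SCRIPT, a factor of conventional dendritic cells. Its WT mock libraries held 148, 131 and 142 at 6 h and its PAMP libraries 256, 268 and 259, and those labelled KO held 93.9, 95.00 and 114 and 192, 165 and 148. The PAMP libraries were higher in both genotypes, while at 3 h they overlapped the mock libraries in WT cells (107 to 116 in mock and 101 to 138 with PAMP RNA). The changes were 0.08 (SE 0.14, adjusted p = 0.676) and 0.89 (SE 0.14, adjusted p = 4.22e-07) in WT cells and 0.63 (SE 0.14, adjusted p = 2.20e-04) and 0.73 (SE 0.14, adjusted p = 1.35e-05) in cells labelled KO, and the genotype difference at 3 h was not called (0.54, SE 0.20, adjusted p = 0.156). With equal total reads the rise at 6 h in cells labelled KO was 0.25 and not called.

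Zfp281, a pluripotency factor that also binds GC-rich promoters in other cells, held 359.6, 354 and 336 in WT mock cells at 3 h and 562, 487 and 493 with PAMP RNA. The groups did not overlap. It rose by 0.55 (SE 0.07, adjusted p = 1.18e-09) and 0.85 (SE 0.07, adjusted p = 1.30e-15) in WT cells and by 0.76 and 1.01 in cells labelled KO, and its upstream bases hold 1 ACGTG core, on the other strand, 143 bases before the start. Zfp318, needed for IgD in B cells, changed by -0.27 (SE 0.08, adjusted p = 0.00914) at 3 h and 0.22 (SE 0.08, adjusted p = 0.019) at 6 h in WT cells, and the value at 6 h turned to -0.15 with equal total reads and was not called with quantile normalization (0.097) or without WT mock library 2 (0.19) or PAMP library 3 (0.21). Zfp335, a T cell factor, changed by -0.22 (SE 0.08, adjusted p = 0.0188) at 3 h in WT cells and was not called in the other responses, nor here by DESeq2 (-0.21) or without mock library 1 (-0.18) or PAMP library 2 (-0.21). Zfp467 fell by 0.38 in WT cells (adjusted p = 0.0154) and by 0.49 in cells labelled KO (adjusted p = 0.00203) at 6 h, and the WT call was lost without mock library 1 (-0.26). Zfp91 was called only at 6 h in cells labelled KO (0.21, SE 0.04, adjusted p = 3.97e-05), where equal total reads gave -0.27 and quantile normalization -0.23.

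Of 8 measured factors of ribosomes, RNA and the spindle, 3 were lower and 0 higher in WT cells at 3 h, and 3 lower and 3 higher at 6 h, beside 22.0% and 19.6%, and 33.3% and 32.1%, of all genes. Zfp598, the ubiquitin ligase that marks collided ribosomes, held 330.0, 378 and 344 in mock cells labelled KO at 6 h and 226, 220.5 and 238 with PAMP RNA, without overlap. It changed by -0.25 (SE 0.08, adjusted p = 0.00742) and -0.32 (SE 0.08, adjusted p = 3.13e-04) in WT cells and by -0.40 (SE 0.08, adjusted p = 2.22e-05) and -0.62 (SE 0.08, adjusted p = 1.06e-09) in cells labelled KO, and its WT call at 3 h was lost without mock library 1 (-0.18). Zfp106 held 3262, 3530.3 and 3527 and 2151, 2607 and 2132 in WT mock and PAMP libraries at 6 h, a clear fall of -0.59 (SE 0.06, adjusted p = 4.00e-12), and -0.60 (SE 0.06, adjusted p = 1.36e-12) in cells labelled KO. Zfp622 and Zfp593, factors of the large ribosomal subunit's maturation, rose at 6 h in WT cells by 0.40 (SE 0.10, adjusted p = 3.54e-04) and 0.59 (SE 0.13, adjusted p = 7.26e-05), but not past the threshold with equal total reads (0.03 and 0.22). Zfp207 rose by 0.22 (SE 0.05, adjusted p = 8.87e-05) in WT cells and 0.37 (SE 0.05, adjusted p = 2.49e-09) in cells labelled KO at 6 h, and turned to -0.15 and -0.12 with equal total reads and to -0.17 and -0.12 with quantile normalization. Zfp326 changed by -0.31 (SE 0.11, adjusted p = 0.024) in WT cells at 3 h and Zfp346, which binds double-stranded RNA, by -0.25 (SE 0.10, adjusted p = 0.0242) at 6 h. The Zfp326 call was lost without WT mock library 1 (-0.26) or 2 (-0.26) or PAMP library 2 (-0.29) or 3 (-0.31). The Zfp346 call was lost with quantile normalization (-0.197), with DESeq2 (-0.25) and without WT mock library 1 (-0.24) or 2 (-0.23) or PAMP library 1 (-0.19).

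Of the SUMO ligase Zfp451 and the Parkin substrate Zfp746, Zfp451 was lower at 3 h, by -0.28 (SE 0.11, adjusted p = 0.0411) in WT cells and -0.42 (SE 0.11, adjusted p = 0.00153) in cells labelled KO. Its WT call was lost by DESeq2 (-0.23), with only the groups compared (-0.28) and without mock library 1 (-0.23) or 3 (-0.29) or PAMP library 3 (-0.08). Zfp746 was not called in any response, with values from -0.15 in WT cells to 0.12 in cells labelled KO at 3 h.

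Among 18 measured chromatin and DNA-binding factors 6 were lower and 3 higher at 3 h in each genotype. At 6 h 5 were lower and 2 higher in WT cells and 7 and 3 in cells labelled KO. Of all genes 22.0% were lower and 19.6% higher in WT cells at 3 h and 33.3% and 32.1% at 6 h. In cells labelled KO these shares were 26.9% and 23.8%, and 36.5% and 35.1%. Zfp217 and Zfp516, the latter a factor of brown fat, were called higher at 3 h and were not called at 6 h under the deposited scaling. Zfp217 held 1472, 1555 and 1544 in WT mock cells at 3 h and 1925, 1932 and 1891 with PAMP RNA, and at 6 h 1612 to 1722 and 1657 to 1723. The groups were apart at 3 h and overlapped at 6 h. The changes were 0.33 (SE 0.05, adjusted p = 1.29e-07) and 0.01 (SE 0.05, adjusted p = 0.827), and 0.29 (SE 0.06, adjusted p = 7.27e-05) and -0.12 (SE 0.06, adjusted p = 0.0782) for Zfp516, whose rise at 3 h did not pass with equal total reads (0.11) or quantile normalization (0.086). At 6 h Zfp217 was called lower with equal total reads (-0.36 in WT cells and -0.46 in cells labelled KO) and with quantile normalization (-0.39 and -0.46), and its KO rise at 3 h was 0.071 and not called with quantile normalization. Zfp131 was called at 6 h and not at 3 h, with 307, 303 and 311 in WT mock and 485, 509.9 and 428 in PAMP libraries at 6 h, without overlap, and changes of 0.00 (SE 0.07, adjusted p = 0.978) and 0.62 (SE 0.07, adjusted p = 2.43e-11). With equal total reads its rise at 6 h in cells labelled KO was 0.09 and not called.

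Zfp292, a large DNA-binding factor, was called lower at 3 h in both genotypes. Its WT mock libraries held 898, 877 and 911 at 3 h and 895, 1159.7 and 1186 at 6 h, and its PAMP libraries 473, 547 and 544 and 1005, 995 and 859.6. They were apart at 3 h and overlapped at 6 h, with changes of -0.78 (SE 0.08, adjusted p = 3.15e-11) and -0.17 (SE 0.08, adjusted p = 0.0621). The change at 6 h in cells labelled KO was -0.45 (SE 0.08, adjusted p = 4.77e-06). The related genes Zfp608, which represses the Rag genes in thymocytes, and Zfp609, which binds the Integrator complex, were lower in all 4 responses, by -0.58 and -0.78 and by -0.26 and -0.63 in WT cells, and by -1.13 and -0.83 at 6 h in cells labelled KO. Zfp143, Zfp384, Zfp407 and Zfp644 were not called in any response. Zfp462, Zfp423, Zfp521 and Zfp507 lay below the level rule, with means of 0.357, 0.168, 0.276 and 4.86 normalized counts.

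A list of 7 measured KRAB members with a described role, in retroelement or imprint control or elsewhere, gave 5 lower at 3 h in WT cells and 6 in cells labelled KO, and at 6 h 4 and 6, with 1 higher in the latter. Of all genes 22.0% and 26.9% were lower at 3 h and 33.3% and 36.5% at 6 h. Zfp708, whose values are uncertain because of shared sequence, was among the lower ones in cells labelled KO at both times. Its call at 3 h there was lost without KO mock library 1 (-0.62) or 3 (-0.69) or PAMP library 2 (-0.46). Zfp809, which silences murine leukemia virus through its primer binding site, held 138, 118 and 128 in mock cells labelled KO at 3 h and 79.96, 81.7 and 94.5 with PAMP RNA, with no overlap. It changed by -0.32 (SE 0.11, adjusted p = 0.0191) and -0.40 (SE 0.11, adjusted p = 0.00199) in WT cells and by -0.58 (SE 0.11, adjusted p = 2.70e-05) and -0.37 (SE 0.11, adjusted p = 0.00364) in cells labelled KO, and its WT value at 3 h was not called without the first PAMP library (-0.17) or the second mock library (-0.23). Zfp568, the repressor of a placental Igf2 transcript, changed by between -0.29 and -0.34 in the 4 responses (-0.32, SE 0.07, adjusted p = 9.31e-05 in WT cells at 6 h). Zfp110 and Zfp369 are partners of the neurotrophin receptor p75. Zfp369 held 143, 129.6 and 131 in WT mock cells at 6 h and 48.3, 55.7 and 53.1 with PAMP RNA, far apart, and changed by -1.34 (SE 0.14, adjusted p = 1.57e-11) there and by -1.89 (SE 0.14, adjusted p = 2.35e-16) in cells labelled KO. Zfp369 was called lower in all 4 responses, at 3 h in WT cells too, with a mean change of -1.07 over the 4. The smallest was at 3 h in cells labelled KO (-0.34, SE 0.14, adjusted p = 0.0415). That call was lost with a lower filter (-0.34), quantile normalization (-0.27) and DESeq2 (-0.35). It was also lost without KO mock library 1 (-0.32), 2 (-0.36) or 3 (-0.35) or PAMP library 2 (-0.28) or 3 (-0.298). Zfp110 changed by -0.43 (SE 0.09) and -0.21 (SE 0.09) in WT cells, and the call at 6 h was lost without mock library 1 (-0.21) or 3 (-0.17) or PAMP library 1 (-0.14). Zfp932 was called only at 6 h in cells labelled KO (0.33, SE 0.13, adjusted p = 0.0182), turned to -0.15 with equal total reads, and shares 18.5% of its 100-base stretches with other genes. Zfp57, which protects imprints, had a mean of 0.429 normalized counts.

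Few members were called for a genotype difference in response. The comparison reuses the libraries of both responses. At 1 h 0 members were called in either direction, against 0.118% of all genes higher and 0% lower, with 16 members at an unadjusted p under 0.05 and 0 by edgeR and by DESeq2. At 3 h 2 were higher (0.735%) and 0 lower in cells labelled KO, against 2.58% and 0.557% of all genes, with 27 members at an unadjusted p under 0.05 and the same counts by edgeR and DESeq2. At 6 h 4 were higher (1.47%) and 7 lower (2.57%), against 6.67% and 3.81%. Among genes with means between the members' quartiles the shares were 0.372% higher and 0.531% lower at 3 h and 2.04% and 3.48% at 6 h. At 6 h the members' shares were a little under those of genes at their level, and the 2 members at 3 h lay above theirs, so neither count is read as particular to the members. The unadjusted counts in this paragraph have no share of all genes beside them and are not read as a result about the members. The median genotype difference of the KRAB members at 3 h was -0.16, beside 0.01 over all genes, and 112 of 149 lay below 0. None of the KRAB members was called by limma, edgeR or DESeq2, with 16 at an unadjusted p under 0.05, and the members without the box had a median of 0.00. This comparison uses the library with the fewest reads in genes, 4740909, PAMP library 1 labelled KO at 3 h. Its part in the shift was not tested.

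The 2 members that differed at 3 h were Zfp319 (0.43, SE 0.11, adjusted p = 0.0156) and Zfp800 (0.34, SE 0.09, adjusted p = 0.0207), both rising more in cells labelled KO. Neither passed with quantile normalization (0.38 and 0.27) or equal total reads (0.35 and 0.27), and single libraries decide both calls: the Zfp319 call was lost without WT mock library 1 (0.38) or KO mock library 3 (0.38), and the Zfp800 call without WT mock library 1 (0.32) or 2 (0.33), WT PAMP library 3 (0.32), KO mock library 2 (0.27) or 3 (0.33), or KO PAMP library 2 (0.32). At 6 h the difference of Zfp800 was 0.41 (SE 0.09, adjusted p = 0.00139).

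Zfp961, a KRAB member, showed the sharpest split among members with a mean of at least 50. At 6 h it held 73.8, 93.2 and 70.9 in WT mock cells and 77.8, 77.1 and 94.5 with PAMP RNA, and 106, 94.1 and 95.2 and 59.9, 70.1 and 53.4 in cells labelled KO. The WT groups overlapped, and those labelled KO did not. The response was 0.07 (SE 0.12, adjusted p = 0.63) in WT cells and -0.68 (SE 0.12, adjusted p = 4.62e-06) in cells labelled KO, a difference of -0.75 (SE 0.18, adjusted p = 0.0031). At 3 h the gene fell in both, by 0.49 and 0.68.

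Zfp868, another KRAB member, went the other way. It held 127, 138 and 141 in WT mock cells and 146, 145 and 139 with PAMP RNA at 6 h, and 110.0, 114 and 113 and 192, 160.3 and 164 in cells labelled KO. WT groups overlapped, and those labelled KO were apart. The responses were 0.08 (SE 0.09, adjusted p = 0.426) and 0.61 (SE 0.09, adjusted p = 8.13e-08), and the difference 0.52 (SE 0.13, adjusted p = 0.00463). Zfp687 held 243, 240.1 and 251 and 394, 422 and 437 in mock and PAMP libraries labelled KO at 6 h, against 269, 274 and 285 and 334, 369.9 and 319.8 in WT cells. Its PAMP libraries labelled KO were the highest of the 4 groups, and the difference was 0.47 (SE 0.12, adjusted p = 0.00659). Zfp488, known in oligodendrocytes, differed by 0.38 (SE 0.12, adjusted p = 0.0332), and was not called with quantile normalization (0.29) or equal total reads (0.27). Nor was it without WT mock library 1 (0.299) or PAMP library 3 (0.31), KO mock library 3 (0.34) or KO PAMP library 2 (0.33) or 3 (0.32).

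Zfp770, Zfp703, Zfp64 and Zfp146 had a lower response in cells labelled KO at 6 h. Zfp770 held 143, 141 and 163 with PAMP RNA in WT cells and 83.8, 78.7 and 107 in cells labelled KO, from similar mock levels of 217 to 242 and 218 to 231, and differed by -0.68 (SE 0.16, adjusted p = 0.0033). Zfp703, a corepressor known from breast epithelium, held 586, 622 and 573 and 401, 391 and 463 in WT mock and PAMP libraries and 767, 762 and 790.4 and 375, 328 and 392 in those labelled KO. Here the mock libraries labelled KO were the higher ones and the PAMP libraries overlapped, and the difference was -0.58 (SE 0.14, adjusted p = 0.00406). Zfp64 held 129, 139 and 135 and 85.1, 74.4 and 76.00 in the libraries labelled KO and 117, 86.7 and 101 and 99.1, 83.00 and 89.3 in WT cells, where the groups overlapped, a difference of -0.60 (SE 0.16, adjusted p = 0.00703). Zfp146 differed by -0.39 (SE 0.12, adjusted p = 0.0277) and was not called by edgeR or DESeq2 (-0.40 in each). Its call was also lost with quantile normalization (-0.33), with only the groups compared (-0.39) and without WT mock library 1 (-0.38) or 2 (-0.37), WT PAMP library 2 (-0.33), KO mock library 2 (-0.32) or KO PAMP library 3 (-0.30). The remaining pair of lower members, named after their values were seen, had low levels. Zfp783, annotated as a transcribed pseudogene, held 18.6, 8.64 and 12.3 in mock cells labelled KO and 2.66, 1.43 and 4.75 with PAMP RNA, where the groups were apart, and 7.55, 15.8 and 13.5 and 15.3, 11.9 and 14.2 in WT cells, where they overlapped. It differed by -2.08 (SE 0.44, adjusted p = 0.001), and the KRAB member Zfp763 by -0.87 (SE 0.23, adjusted p = 0.00976).

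**Figure D5:**
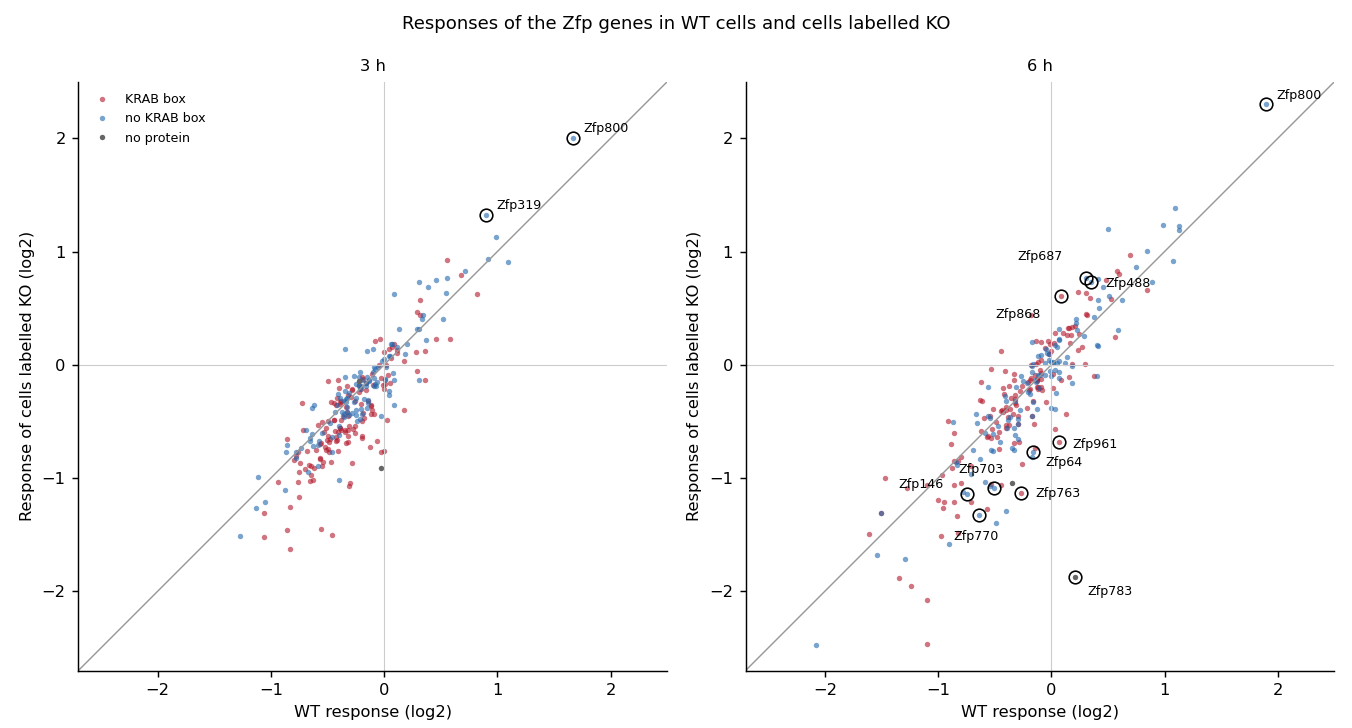
Response of each Zfp gene in WT cells (horizontal axis) and in cells labelled KO (vertical axis), in log2 units, at 3 h and 6 h, with KRAB members in red, those without the box in blue, members without an annotated protein in dark grey, the line of equal response, and circles on members whose genotype difference was called. Zfp800 stands apart at the upper right at both times, and the circled members at 6 h are 4 above and 7 below the line.

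In mock cells 3 members were higher and 10 lower in cells labelled KO over the 3 times, 1.10% and 3.68%, against 10.5% and 11.7% of all genes. Zfp366 was among the lower ones: mock libraries held 55.9 to 72.4, 107 to 116 and 131 to 148 normalized counts at 1, 3 and 6 h in WT cells and 35.5 to 47.3, 53.9 to 67.8 and 93.9 to 114 in cells labelled KO. The genotypes did not overlap at any time, and the difference was -0.68 (SE 0.08, adjusted p = 4.80e-09). Zfp827, which recruits a chromatin remodeller to telomeres, held 50.2 to 75.2, 92.5 to 97.9 and 87.95 to 109 in WT and 32.7 to 38.02, 53.8 to 65.5 and 51.1 to 71.9 in KO mock libraries, again without overlap, a difference of -0.71 (SE 0.09, adjusted p = 6.03e-08). The other named differences were small: -0.23 for Zfp809, -0.19 for Zfp46, -0.19 for Zfp608 and -0.14 for Zfp868 among the lower, and 0.22, 0.22 and 0.18 for Zfp503, Zfp839 and Zfp64 among the higher. The Zfp868 call was lost with a pseudocount of 8 (-0.13), a lower filter (-0.14), equal total reads (-0.13), DESeq2 (-0.15), the replicate block (-0.14) and most single libraries left out, from -0.12 to -0.15. Zfp64 was not called by DESeq2 (0.17) or without many single libraries (0.14 to 0.18), nor was Zfp503 without any 1 of 5 (0.16 to 0.21). Summed dendritic cell markers spanned 25846 to 46421 over the mock libraries, and their part in the lower Zfp366 was not tested.

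Mock cells changed with time in culture. From 1 to 3 h 101 members (37.1%) rose and 48 (17.6%) fell, averaged over genotypes, against 26.7% and 27.7% of all genes. The KRAB members gave 63 rises and 18 falls of 149, those without the box 38 and 30 of 121, and the other KRAB zinc finger genes 30 and 1 of 46. This comparison and the responses at 3 h share the mock libraries of 3 h, with opposite sign, so a rise here and a fall there are not independent. Among members with a mean of at least 50 and no overlap, the largest rises were Zfp691 (1.08, SE 0.12, adjusted p = 1.82e-10), Zfp595 (1.05, SE 0.11), Zfp532 (0.81, SE 0.12), Zfp27 (0.77, SE 0.12), Zfp41 and Zfp429 (0.71, SE 0.08). Zfp691 went from 28.7, 34.7 and 28.2 in WT mock cells at 1 h to 59.2, 53.5 and 65.8 at 3 h, with no overlap. By the same rule the largest falls were Zfp367 (-0.88, SE 0.06, adjusted p = 1.60e-16), Zfp609 (-0.87, SE 0.06), Zfp142 (-0.75, SE 0.07), Zfp655 (-0.71, SE 0.05), Zfp871 (-0.69, SE 0.06) and Zfp382 (-0.65, SE 0.10).

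From 3 to 6 h 44 members (16.2%) rose and 60 (22.1%) fell in mock cells, against 28.9% and 28.4% of all genes. Among members with a mean of at least 50 and no overlap, Zfp467, Zfp488 and Zfp366 rose most, by 0.69 (SE 0.10, adjusted p = 8.10e-08), 0.60 (SE 0.06) and 0.53 (SE 0.10), followed by Zfp871 (0.42), Zfp263 (0.39) and Zfp524 (0.38, uncertain, with 51.6% of its exons overlapped and 42.9% of its 100-base stretches shared). Zfp467 held 117, 130.3 and 118 in the mock libraries labelled KO of 3 h and 184, 208 and 204 in those of 6 h, without overlap. Zfp961 (-0.74, SE 0.09, adjusted p = 9.75e-10), Zfp850 (-0.69, SE 0.14), Zfp672, Zfp503, Zfp932 and Zfp35 fell most by the same rule, the last 4 by -0.58, -0.58, -0.56 and -0.55.

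RefSeq promoter windows, 250 bases before to 50 after the start, were at hand for 228 of the 272 members. The interferon-stimulated response element core GAAANNGAA, on either strand, was in 6.14% of them, beside 7.59% for 9495 tested genes with a window and 8.56% of all 32851 windows. The NF-kB motif GGNNTTTCC was in 9.21%, beside 6.07% and 5.82%, the ACGTG core in 23.7%, beside 26.3% and 19.6%, and the AP-1 motif TGACTCA in 3.51%, beside 3.48% and 5.20%. Of the 17 members that rose in all 4 responses 1 held the interferon core, 3 the NF-kB motif, 4 the ACGTG core and 0 the AP-1 motif, and of the 46 with a window among the 64 that always fell the numbers were 3, 3, 14 and 2. None of the 4 motifs contains another, the shares were not tested against each other, and a match describes the window and not a site in use. The median GC content was 62.0% in windows of the 17, 55.5% in those of the 46, 55.3% over all members and 60.7% over tested genes.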

How the data were processed

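RNA-seq of 36 libraries was deposited as a table of DESeq-normalized read counts (a signal scale) that the authors made, per the file headers and the labels. Per the submitters' processing notes TopHat, Cufflinks and DESeq2 were used with build GRCm38 (mm10), and the sources used here give neither their versions nor their roles. Libraries were made with SMARTer and Nextera XT kits, per the labels' protocols, and do not mark strand. Whole reads were recovered from the normalized signal, with 100% of values within 0.01 read of a whole number.

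Log2(normalized count + 1) of the 11853 genes with a mean of at least 10 was fitted with limma 3.58.1 (trend) in R 4.3.3 over all 12 groups with 24 residual degrees of freedom, and p-values were Benjamini-Hochberg adjusted over all genes. The log2 scale with a pseudocount understates changes of low genes. edgeR 4.0.16 and DESeq2 1.42.0 were run on the recovered reads. edgeR called 3816 genes higher and 3824 lower in WT cells at 6 h, against 3803 and 3951 in limma. The code was tested on simulated data. The labels call the plated triplicates biological and do not say whether they came from separate mice, so p-values measure only the spread between these libraries. Over 18 same-numbered mock and PAMP pairs the deviations correlated at a median of -0.025, from -0.081 to 0.051, with 0 over 0.1. The numbers thus showed no pairing of mock with PAMP libraries, and pairing across times or genotypes was not examined.

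Gene models were GENCODE M21 (GRCm38), which matched 272 of 272 members, 2 of them by older symbols. A KRAB box was called from a score over 40-residue windows of the protein, with a minimum of 20. Members and gene lists were chosen with earlier results of these data known. Genes named are, for each comparison, up to 6 called rises and 6 falls of largest size among members with a mean of at least 50 and groups that do not overlap, the 6 highest, 3 on each side of the level threshold, a panel of known roles, and Dhx58, Trim28 and Setdb1. Morc3, Zfp783 and Zfp763 were named after their values were seen. Alternatives were other pseudocounts, filters, scalings and tools, a replicate block, fits of only the groups compared, and leaving out each library. Zfp683 and Zfp638 were not analysed here.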

Additional observations from a re-analysis of the deposited data

Results flagged for a closer look

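The Zfp genes below had a response that differed between WT cells and cells labelled KO by limma's interaction test, given as log2 differences (KO minus WT). At 3 h these were Zfp319 (0.43) and Zfp800 (0.34). At 6 h Zfp800 (0.41), Zfp488 (0.38), Zfp687 (0.47) and Zfp868 (0.52) were higher. Lower at 6 h were Zfp146 (-0.39), Zfp64 (-0.60), Zfp703 (-0.58), Zfp763 (-0.87), Zfp770 (-0.68), Zfp783 (-2.08) and Zfp961 (-0.75). The mock level of Dhx58 goes against the KO label, and its part in these differences was not tested.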

How the results depend on the processing

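With equal total reads the members called higher and lower were 16 and 171 (WT, 3 h) and 12 and 207 (WT, 6 h). They were 19 and 209 (labelled KO, 3 h) and 15 and 217 (labelled KO, 6 h). Of all genes 13.6% and 45.3%, 16.4% and 62.4%, 14.9% and 56.8%, and 16.9% and 66.5% were called in that order. The same scaling gave 0 higher and 1 lower for the genotype difference at 3 h, beside 1.21% and 1.29% of all genes. At 6 h it gave 23 lower (8.46%), beside 10.5% of all genes. Quantile normalization gave 0 higher at 3 h, beside 1.31% of all genes. Over all genes the share of calls that were higher moved with equal total reads from 47.1% to 23.0% (WT, 3 h), 49.0% to 20.8% (WT, 6 h), 47.0% to 20.8% (labelled KO, 3 h) and 49.0% to 20.2% (labelled KO, 6 h), and with quantile normalization to 33.9%, 39.95%, 34.8% and 40.4%. DESeq2 gave 4 lower for the genotype difference at 6 h. For KO minus WT in mock cells edgeR gave 7 higher and 18 lower, and fitting only the groups compared gave 6 higher.

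Directions turned for some small changes. With quantile normalization these were Zfp91 (-0.28), Zfp207 (-0.17) and Zfp217 (-0.39) in WT cells at 6 h, Zfp207 (-0.13) in cells labelled KO at 3 h, and Zfp91 (-0.23), Zfp207 (-0.12), Zfp148 (-0.077) and Zfp217 (-0.46) there at 6 h. With equal total reads they were Zfp318 (-0.15), Zfp91 (-0.30), Zfp207 (-0.15), Zfp217 (-0.36) and Zfp687 (-0.069) in WT cells at 6 h, Zfp207 (-0.068) in cells labelled KO at 3 h, and Zfp318 (-0.18), Zfp91 (-0.27), Zfp593 (-0.18), Zfp207 (-0.12), Zfp148 (-0.35), Zfp217 (-0.46) and Zfp932 (-0.15) there at 6 h. The lower median under equal totals follows from that scaling, and the other causes were not tested.

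Leaving out 1 library gave 0 to 1 members higher for the WT response at 1 h, 1 to 6 higher for KO minus WT in mock cells, 0 to 2 higher and 0 to 1 lower for the genotype difference at 3 h, and 3 to 7 higher and 7 to 11 lower at 6 h. With the replicate block the counts higher and lower were 25 and 111 (WT, 3 h) and 36 and 106 (WT, 6 h). In cells labelled KO they were 25 and 135 at 3 h and 44 and 118 at 6 h. For the genotype differences they were 2 and 0 at 3 h and 4 and 7 at 6 h. For KO minus WT in mock cells they were 3 and 9. The replicate numbers showed no pairing of mock with PAMP libraries, and other pairings were not examined.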
